A study of Mus musculus with 6 samples.

Results

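Polyadenylated RNA of the ventral spinal cord was examined for 10 membrane and cytoskeleton genes of leukocytes. Most are known from many leukocyte types, whereas Mpeg1 is best known from macrophages and Itgal from lymphocytes. They were Ptprc, Cd52, Cd48, Cd53 and Itgal, which encode surface proteins, Laptm5 and Mpeg1, which encode proteins of internal membranes, and Coro1a, Lcp1 and Lcp2, which encode actin-binding and signalling proteins. Ptprc, Laptm5 and Mpeg1 were selected on their lower values after AAV-NDNF in these same libraries, so their differences are given as a description without a test. The other 7 genes were named as members of the same class with results of these data already known. All 10 were found among the 28162 genes of the deposited table, and all 10 were among the 17480 genes that passed the filter on low values (3 or more libraries with a normalized count of 10 or higher). The tested animals were SOD1G93A mice, whose transgene for a mutant form of superoxide dismutase 1 makes them a model of amyotrophic lateral sclerosis, injected intrathecally with AAV-NDNF, an adeno-associated virus that carries neuron-derived neurotrophic factor. Their controls were SOD1G93A mice injected by the same route with AAV-GFP, which carries green fluorescent protein. Both groups carried the transgene and received a virus on postnatal day 74, and the lumbar cord was collected on day 104 (3 libraries per group, labelled as biological replicates). Mice without the transgene and uninjected SOD1G93A mice were not analysed here. Age apart, no sex, serotype, promoter or dose was given in the sources used here.

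CD45, the product of Ptprc, is a receptor tyrosine phosphatase that removes the inhibitory phosphate from Src family kinases and so sets the threshold of immune receptor signalling. Nucleated blood cells and the macrophages of tissues all carry it. In the healthy cord most cells with these transcripts are microglia, the resident macrophages, while perivascular macrophages and the few lymphocytes contribute the rest. In SOD1G93A mice microglia multiply and change state as motor neurons degenerate, and T cells enter the cord. A lower level of such a transcript in bulk tissue can come from fewer cells of a type or from less RNA per cell, and these cannot be told apart here.

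The libraries held between 15335789 and 20060987 reads assigned to genes. Ndnf, the delivered gene, stood at 5286, 7077.1 and 673.7 normalized counts in AAV-NDNF libraries 1 to 3, against 171.4, 128 and 158.1 in AAV-GFP libraries 1 to 3, so each library matched its label and AAV-NDNF library 3 was the lowest of its group. Markers of the cord were present in every library, such as Snap25 of neurons (36767.6 to 46589 normalized counts after AAV-NDNF, 31725.8 to 38136.8 after AAV-GFP). All 14 microglial markers were tested, and their summed level was 15000 to 17200 normalized counts after AAV-NDNF, against 20080 to 20560 after AAV-GFP. Of 9 neutrophil markers in the table, 8 (Ly6g, S100a8 and Retnlg among them) had no value above 8.545 normalized counts. The remaining marker, the growth factor receptor gene Csf3r, was at 520.6, 431.3 and 457.9 after AAV-NDNF, against 593.7, 794.5 and 571.4 after AAV-GFP, without overlap (limma adjusted p = 0.828). In addition Ms4a1 of B cells was at 0 in 5 of 6.

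The promoters of 8 of the 10 genes, in 11 windows from 250 bases before to 50 after an annotated start, were read from RefSeq sequences (GRCm38.p6, which is mm10). Cd52 and Itgal had no window in that table. The windows of Ptprc, Laptm5, Mpeg1 and Cd53 are shown. The first 3 genes carry the differences that selected them. Cd53 holds the single match to GAGGAAGT, the string searched for PU.1, the master regulator of myeloid genes. These windows lie at chr1:138175256-138175555 (minus strand), chr4:130913066-130913365 (plus), chr19:12460520-12460819 (plus) and chr3:106790100-106790399 (minus). Capitals mark every match to the motifs searched, on either strand.

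Ptprc: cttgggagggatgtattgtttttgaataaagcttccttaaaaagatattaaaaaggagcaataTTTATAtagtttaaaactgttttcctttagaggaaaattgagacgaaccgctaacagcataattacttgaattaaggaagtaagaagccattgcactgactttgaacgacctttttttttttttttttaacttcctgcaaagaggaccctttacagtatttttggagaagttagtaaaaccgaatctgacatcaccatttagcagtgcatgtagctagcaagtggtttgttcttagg

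Laptm5: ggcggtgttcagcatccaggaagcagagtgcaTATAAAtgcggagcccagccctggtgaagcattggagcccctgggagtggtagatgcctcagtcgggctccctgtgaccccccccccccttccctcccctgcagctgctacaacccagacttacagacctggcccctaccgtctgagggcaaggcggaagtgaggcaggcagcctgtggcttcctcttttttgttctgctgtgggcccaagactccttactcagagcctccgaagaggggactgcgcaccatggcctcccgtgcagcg

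Mpeg1: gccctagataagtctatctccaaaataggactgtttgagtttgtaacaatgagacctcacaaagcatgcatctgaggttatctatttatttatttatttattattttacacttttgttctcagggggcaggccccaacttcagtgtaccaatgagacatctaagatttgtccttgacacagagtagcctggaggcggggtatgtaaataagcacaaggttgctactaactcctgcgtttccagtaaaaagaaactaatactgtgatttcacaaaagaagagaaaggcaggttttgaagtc

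Cd53: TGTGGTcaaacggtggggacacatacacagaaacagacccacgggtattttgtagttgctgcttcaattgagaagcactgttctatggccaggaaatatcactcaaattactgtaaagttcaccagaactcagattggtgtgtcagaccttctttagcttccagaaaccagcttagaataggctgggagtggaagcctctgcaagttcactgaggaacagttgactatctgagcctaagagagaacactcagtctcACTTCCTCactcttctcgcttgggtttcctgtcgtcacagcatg

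The motifs searched on both strands were GAGGAAGT (PU.1), GGAANNGAA (ETS-IRF composite), GAAANNGAA (interferon-stimulated response element core) and 2 shorter strings. The shorter strings were TGTGGT for the RUNX core and, for the TATA box of many regulated promoters, TATAAA. No 2 matches overlapped. The PU.1 string, all 8 bases of which had to match, was found in 1 of the 11 windows. That match lay in antisense 6 bases after the start of Cd53, and 3.2% of all 32851 windows of the table held the string. Shorter forms of the PU.1 site were not searched. The RUNX core was found in 2 windows (Cd48 and Cd53) and in 16.8% of all windows. The string TATAAA was found in 2 windows and in 13.6% of all windows. It lay 218 bases before the start of Laptm5 and, in antisense, 187 bases before the start of Ptprc. Whether it acts as a TATA box there was not tested. The ETS-IRF composite and the interferon-stimulated response element core were in 0 of the 11 windows, and in 8.24% and 8.56% of all windows. The window of Mpeg1 held none of the 5 strings, and none of them was found in all 8 genes.

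Among the surface proteins, Ptprc (chromosome 1, 138062861 to 138175708, minus strand, mm10) was at 376.8, 390.8 and 324.2 normalized counts in AAV-NDNF libraries 1 to 3, against 578.5, 558 and 631.3 in AAV-GFP libraries 1 to 3. Every AAV-NDNF library was below every control, and the highest AAV-NDNF library had 0.7 times the count of the lowest control. The mean was 363.9 ± 35.1 after AAV-NDNF and 589.3 ± 37.8 after AAV-GFP (SD, n = 3 each), a log2 difference of −0.70 on the log2(value + 1) scale (SE 0.13).

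Cd52 (chromosome 4, 134082448 to 134095082, minus strand), which encodes a short heavily glycosylated peptide anchored by lipid to the leukocyte surface, was at 127.8, 154.3 and 178.5 normalized counts after AAV-NDNF, against 282.1, 235.5 and 337.5 after AAV-GFP. The groups did not overlap, and AAV-GFP library 2 was the lowest control. The log2 difference was −0.89 (SE 0.20), which did not pass limma over all genes (Benjamini-Hochberg adjusted p = 0.442). It passed with DESeq2 on the recovered reads (adjusted p = 0.035) and with limma-voom with quality weights (adjusted p = 0.0143). Over all alternatives its adjusted p ran from 0.0143 to 0.9998.

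Itgal (chromosome 7, 127296260 to 127335138, plus strand) encodes CD11a, the alpha chain that pairs with CD18 to form the adhesion receptor LFA-1, best known on lymphocytes. It was at 11.8, 23.7 and 11 normalized counts after AAV-NDNF, which rest on 14, 21 and 10 reads, against 54.5, 61.6 and 51.3 after AAV-GFP, which rest on 61, 63 and 48 reads. Its mean after AAV-NDNF was 0.277 times that after AAV-GFP, the lowest ratio of the 10 genes, and the groups did not overlap. The log2 difference of −1.86 (SE 0.39) did not pass limma over all genes (adjusted p = 0.364). It passed with DESeq2 on the recovered reads (adjusted p = 0.0352), and over all alternatives its adjusted p ran from 0.0352 to 0.999.

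Cd48 (chromosome 1, 171682009 to 171705258, plus strand), a lipid-anchored adhesion protein of the SLAM family that binds CD244 and CD2, was at 52.1, 55.2 and 99.7 normalized counts after AAV-NDNF, against 126.8, 61.6 and 148.5 after AAV-GFP. AAV-GFP library 2 lay within the AAV-NDNF range, and AAV-NDNF library 3 lay above that control. The log2 difference was −0.66 (SE 0.36, limma adjusted p = 0.997). It was −1.05 without AAV-GFP library 2 and −0.42 without AAV-GFP library 3. Cd53 (chromosome 3, 106759921 to 106790149, minus strand), a tetraspanin that organizes receptors in the leukocyte membrane, was at 256.5, 322.1 and 340.7 normalized counts after AAV-NDNF, against 427.6, 293.2 and 416.6 after AAV-GFP. AAV-GFP library 2 was again within the AAV-NDNF range, and the log2 difference of −0.30 (SE 0.18) was not called (limma adjusted p = 0.997). It was −0.17 without AAV-NDNF library 1 and −0.47 without AAV-GFP library 2.

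Both genes of internal membranes, Laptm5 and Mpeg1, were selected on their lower values in these libraries. That their groups did not overlap is therefore no result about this class. Laptm5 (chromosome 4, 130913125 to 130936141, plus strand), a lysosomal membrane protein of hematopoietic cells that sends antigen receptors to degradation in lymphocytes, was at 1708.2, 1599.2 and 1357.2 normalized counts after AAV-NDNF, against 2329.2, 2282.9 and 2374.4 after AAV-GFP. The controls varied little around their mean (coefficient of variation 1.97%, against 11.6% after AAV-NDNF), and the log2 difference was −0.59 (SE 0.12). Mpeg1 (chromosome 19, 12460779 to 12465283, plus strand), which encodes the pore-forming perforin-2 of macrophages, was at 2487.8, 2608.3 and 2609.2 after AAV-NDNF, against 4275.3, 3755.6 and 4439.1 after AAV-GFP. Here the AAV-NDNF libraries lay close together (coefficient of variation 2.72%, against 8.59% after AAV-GFP), and the log2 difference was −0.69 (SE 0.11).

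The actin-binding genes Coro1a and Lcp1 had overlapping groups. Coro1a (chromosome 7, 126699773 to 126707787, minus strand) encodes coronin-1A, which restrains the Arp2/3 complex in leukocytes. It was at 394.5, 426.8 and 468.8 normalized counts after AAV-NDNF, against 492.8, 468.1 and 496.7 after AAV-GFP, and AAV-NDNF library 3 was just above AAV-GFP library 2. Its log2 difference was −0.18 (SE 0.13, limma adjusted p = 0.997), and −0.12 without AAV-NDNF library 1. The value is uncertain because Bola2 (mean 378.6 normalized counts) overlaps Coro1a on the opposite strand and the strand setting of the counting was not given.

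Lcp1 (chromosome 14, 75131101 to 75230842, plus strand) encodes L-plastin, which bundles actin filaments in hematopoietic cells. It was at 979.8, 1072.2 and 1150.2 normalized counts after AAV-NDNF, against 1123.1, 1285.1 and 1158.9 after AAV-GFP. The groups overlapped, AAV-GFP library 2 held the highest value, and the log2 difference was −0.16 (SE 0.11, limma adjusted p = 0.997). It was −0.096 without AAV-NDNF library 1 and −0.099 without AAV-GFP library 2. Lcp2 (chromosome 11, 34046920 to 34092295, plus strand) encodes SLP-76, the adaptor that links immune receptor kinases to phospholipase C gamma and the cytoskeleton. It was at 74.9, 90.1 and 107.3 normalized counts after AAV-NDNF, against 152.7, 104.6 and 139.9 after AAV-GFP. AAV-NDNF library 3 stood above AAV-GFP library 2, and the log2 difference of −0.54 (SE 0.23) was not called (limma adjusted p = 0.997).

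**Figure D1:**
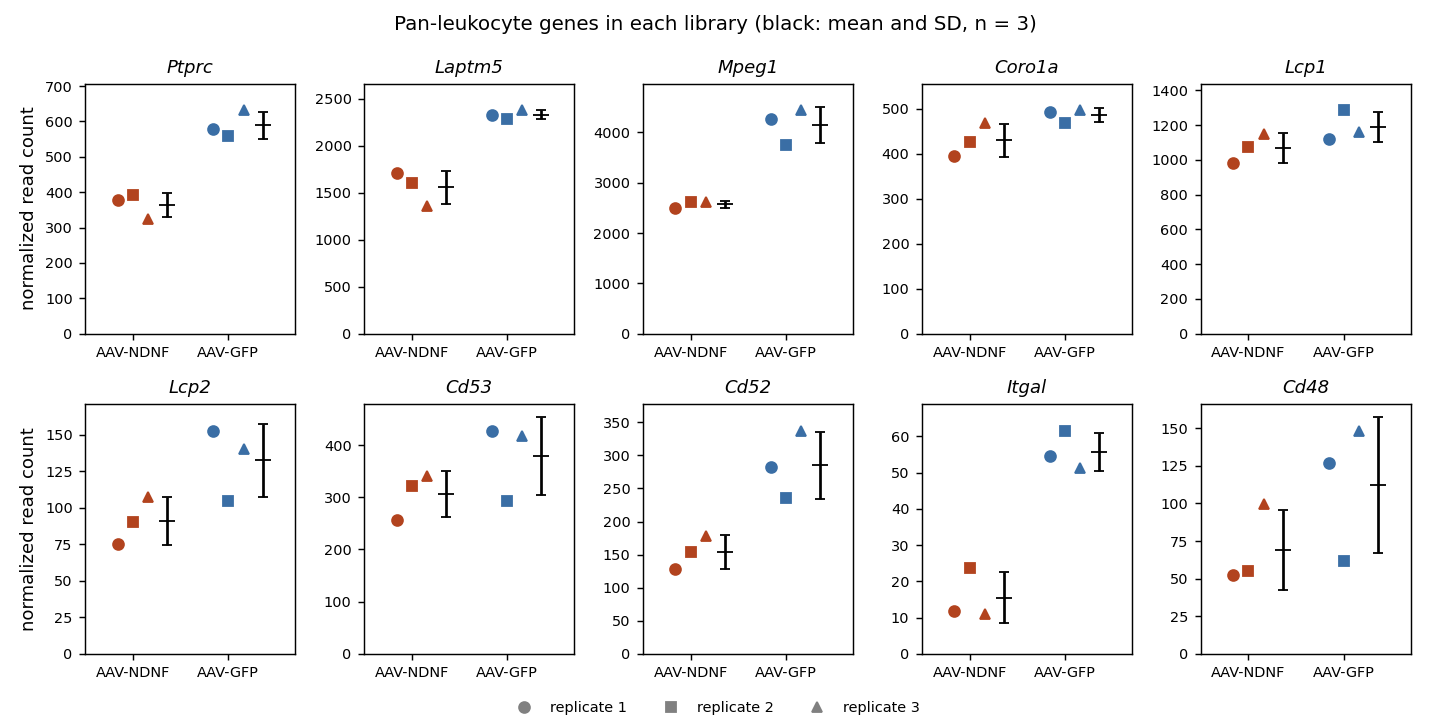
Normalized read counts (y axis, from 0) of the 10 genes in each library, AAV-NDNF to the left of AAV-GFP, with the marker shape giving the replicate number and black bars the mean and SD of 3 libraries. The groups are separate for Ptprc, Laptm5, Mpeg1, Cd52 and Itgal, and overlap for Coro1a, Lcp1, Lcp2, Cd53 and Cd48.

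All 10 log2 differences were below 0, where 49.9% of all genes tested were. The median over the 10 was −0.63, beside 0.00083 over all genes tested, and it was −0.54 over the 7 genes that were not selected on their difference. In 5 of the 10 the groups did not overlap, with AAV-NDNF lower, as in 5.5% of all genes tested. Of those 5, 3 are the selected genes, and Cd52 and Itgal are the other 2. That count of 5 became 9 without AAV-NDNF library 3 and 9 without AAV-GFP library 2, and 8 with upper quartile scaling. Leaving out a library can only keep or raise such a count. The share of all genes without overlap was not counted in these settings, so the 5.5% does not apply to them. None of the 7 genes that were not selected passed limma with a Benjamini-Hochberg adjusted p under 0.05, as for 0% of all genes tested. Over all genes 818 had an unadjusted p under 0.05 in limma, 617 of them lower, and the counts past the adjusted threshold were 0 with edgeR, 54 with DESeq2 and 165 with limma-voom on the recovered reads. Of the 7 genes, DESeq2 called Cd52 and Itgal, and limma-voom called Cd52. Of the 7 genes that were not selected, 3 (Cd52, Itgal and Lcp2) were lower with an unadjusted p under 0.05, where 3.53% of all genes tested were. That count of 3 was 5 without AAV-GFP library 2, where Cd53 and Cd48 joined, and 4 without AAV-NDNF library 3. The share of all genes tested was 3.38% and 4.45% in these settings, in that order. The count was 2 without AAV-NDNF library 1 or 2 and without AAV-GFP library 1 or 3, since Lcp2 dropped out. There the share of all genes tested was 5.55% and 2.56% without AAV-NDNF library 1 and 2, and 2.19% and 2.35% without AAV-GFP library 1 and 3. An exact permutation test of a single gene cannot give a two-sided p below 0.1 with 3 against 3 libraries.

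The authors' deposited table, from DESeq2, lists 2 of the 7 genes that were not selected as lower with an adjusted p under 0.05, as it does 0.246% of all its genes. In the authors' deposited table the log2 fold change was −0.895 for Cd52 (adjusted p = 0.0347) and −1.86 for Itgal (adjusted p = 0.035).

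**Figure D2:**
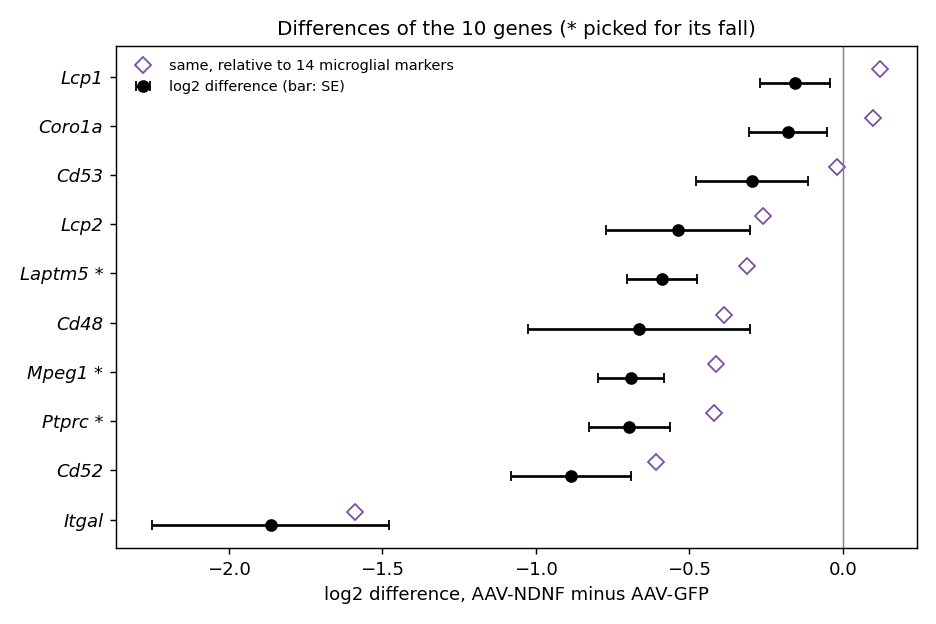
Log2 difference of each gene, AAV-NDNF minus AAV-GFP (x axis), with its SE as black points and bars, and the same difference after subtracting the mean log2 value of 14 microglial markers in each library as open diamonds. Itgal lies farthest below 0 on both measures, and the diamonds of Coro1a and Lcp1 lie above 0.

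The libraries did not rank alike within the groups. AAV-NDNF library 1 was the lowest of its group for 7 of the 10 genes. AAV-NDNF library 3, which had the least Ndnf, was the highest of its group for 7 and the lowest for 3. AAV-NDNF library 2, which had the most Ndnf, was the lowest for 0 and the highest for 2. A relation to the level of Ndnf was not tested. AAV-GFP library 2 was the lowest control for 8 of the 10, with Lcp1 and Itgal the exceptions. The mean of the 10 centred log2 values was −0.47, −0.26 and −0.25 in AAV-NDNF libraries 1 to 3, against 0.39, 0.15 and 0.44 in AAV-GFP libraries 1 to 3. Over the 7 genes not selected on their difference it was −0.56, −0.25 and −0.17, against 0.41, 0.12 and 0.45.

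Levels were compared between genes only per kilobase of annotated exon. Mpeg1 was highest, at 593 ± 16.1 normalized counts per kilobase after AAV-NDNF and 959 ± 82.3 after AAV-GFP (SD, n = 3 each), followed by Laptm5 at 410 ± 47.4 and 615 ± 12.1. For comparison Csf1r, the growth factor receptor of microglia, stood at 549 ± 23.7 per kilobase after AAV-NDNF and 771 ± 20.8 after AAV-GFP. Then came Cd52, Cd53, Coro1a and Lcp1, whose means per kilobase ran from 112 to 176 after AAV-NDNF and from 125 to 240 after AAV-GFP. Their order changed with the group and with the length used, and the ranges of Cd52 (198 to 284 per kilobase) and Cd53 (168 to 245) overlapped after AAV-GFP.

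Cd48 followed at 58 ± 22.4 per kilobase after AAV-NDNF and 94.4 ± 38 after AAV-GFP. Ptprc at 19.9 ± 1.92 and 32.2 ± 2.06 and Lcp2 at 20.4 ± 3.65 and 29.7 ± 5.59 per kilobase did not differ beyond their spread in either group. Itgal was lowest at 2.35 ± 1.08 per kilobase after AAV-NDNF and 8.49 ± 0.803 after AAV-GFP. The union of exons counts every annotated exon once, which is long for Ptprc (18313 bases, against 5074 in its longest coding transcript). With the longest coding transcript as the length, Ptprc came to 71.7 per kilobase after AAV-NDNF and 116 after AAV-GFP, above Cd48 and Lcp2 in both groups, while Mpeg1, Laptm5 and Cd52 were the 3 highest in both groups and Itgal was the last.

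**Figure D3:**
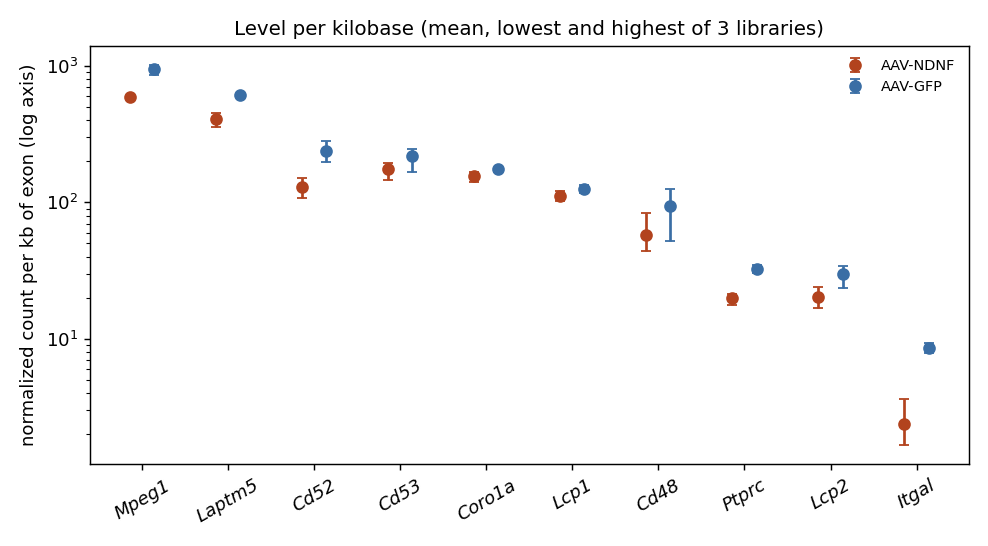
Normalized count per kilobase of annotated exon (log axis) of the 10 genes, ordered by their level after AAV-GFP, with the mean and the lowest and highest of 3 libraries for AAV-NDNF (left of each pair) and AAV-GFP. The levels run from Mpeg1 at 593 after AAV-NDNF and 959 after AAV-GFP down to Itgal at 2.35 and 8.49.

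Microglial markers also had lower means after AAV-NDNF, so each gene was expressed relative to them. All 14 markers had log2 differences below 0 (median −0.25), where 49.9% of all genes tested did, and 0 passed limma in either direction. The groups did not overlap for 7 of the 14, with AAV-NDNF lower, as in 5.5% of all genes tested. Csf1r was 3170 ± 137 normalized counts after AAV-NDNF and 4450 ± 120 after AAV-GFP, and Cx3cr1, the fractalkine receptor, was 1667 ± 142 and 2187 ± 11.5 (SD, n = 3 each). Relative to the mean log2 value of the 14 markers, the 10 genes had a median difference of −0.35. That median includes Ptprc, Laptm5 and Mpeg1, which were selected on their lower values. Ptprc was at −0.64, −0.62 and −1.02 relative to the markers after AAV-NDNF, against −0.39, −0.41 and −0.22 after AAV-GFP, so its groups remained apart. The groups also remained apart on this scale for Laptm5 (difference −0.31), Mpeg1 (−0.41), Cd52 (−0.61) and Itgal (−1.59). Of the genes that were not selected, only Cd52 and Itgal remained apart. For Cd53 the relative difference was −0.02, and for Coro1a and Lcp1 it was 0.10 and 0.12, with overlapping groups. Lcp2 (−0.26) and Cd48 (−0.39) also had overlapping groups on this scale. These relative values are a description without a test.

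Partners of the 10 genes on the leukocyte surface were read in the same way, and none passed limma. Itgb2, the CD18 chain with which CD11a pairs, was 470.8 ± 39.3 normalized counts after AAV-NDNF and 706.4 ± 65.2 after AAV-GFP (log2 difference −0.58, SE 0.13, limma adjusted p = 0.442). The log2 ratio of Itgal to Itgb2 was −5.23, −4.36 and −5.17 in AAV-NDNF libraries 1 to 3, against −3.56, −3.45 and −3.9 in AAV-GFP libraries 1 to 3. Itgal was thus lower relative to its partner by 1.28 on the log2 scale. The permutation p of this difference was 0.1 (exact, two-sided), which is the lowest value 3 against 3 libraries can give, and the ratio was chosen after the values were seen. Itgax, the alpha chain of another CD18 integrin and a marker of activated microglia, was 238.8 ± 64.3 and 428.1 ± 58.6 (adjusted p = 0.53). Icam1, a ligand of LFA-1, was 127.9 ± 27.4 and 155 ± 19.2 with overlapping groups. Cd244a and Cd2, which encode the receptors of CD48, had at most 18.2 and 12.8 normalized counts in any library and were not tested.

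In the list of 34 other leukocyte surface genes, 27 of 30 tested members had log2 differences below 0 and 0 passed limma in either direction (median −0.43). Its leading members were Itgb2, Itgax, the fungal pattern receptor gene Clec7a at 435.7 ± 40.8 and 694.4 ± 149 normalized counts, and Slamf9 at 83.3 ± 10.5 and 145.2 ± 15.9. The groups did not overlap for 14 of the 30, with AAV-NDNF lower in all 14 (5.5% of all genes tested), and 2 of the list's genes (Selplg and Siglech) are also among the microglial markers.

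Regulators of the leukocyte actin cytoskeleton had log2 differences below 0 in 26 of 29 tested members, 0 of them past the threshold in either direction (median log2 difference −0.37). The groups did not overlap for 14 of the 29, with AAV-NDNF lower (5.5% of all genes tested). Dock2, the exchange factor that activates Rac in leukocytes, was 243.1 ± 25.6 normalized counts after AAV-NDNF and 384.5 ± 34.3 after AAV-GFP (log2 difference −0.66, SE 0.15, limma adjusted p = 0.489). Arpc1b, the Arp2/3 subunit of hematopoietic cells, was 962.5 ± 79.1 and 1322 ± 107. Arhgap45 was 289 ± 15.6 and 453.6 ± 41, and Arhgap25 was 107.9 ± 16.8 and 189.9 ± 16.9.

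Of the signalling genes next to CD45 and SLP-76, 27 of 33 tested members had differences below 0 and 0 passed the threshold in either direction (median −0.28). For 16 of the 33 the groups did not overlap, with AAV-NDNF lower (5.5% of all genes tested). Lyn, a Src family kinase that CD45 acts on, was 306.6 ± 20.6 normalized counts after AAV-NDNF and 459 ± 79.1 after AAV-GFP, and its groups did not overlap. Csk, the kinase that opposes CD45, was 1001 ± 7.8 after AAV-NDNF and 1069 ± 49.7 after AAV-GFP (log2 difference −0.09, SE 0.10), also without overlap. Ptpn6, the SHP-1 phosphatase, was 233 ± 17.6 and 385.8 ± 21.1 (log2 difference −0.73, SE 0.14, limma adjusted p = 0.351). Btk was 52.9 ± 4.62 and 79.2 ± 2.02, Syk 142.4 ± 8.37 and 169 ± 19.3, and Plcg2 217.2 ± 54.8 and 255.3 ± 45, and of these 3 only Btk did not overlap between the groups. Lat, the adaptor beside SLP-76 in T cells, had at most 15.1 normalized counts in any library.

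Relatives of the 10 genes that are not restricted to leukocytes had log2 differences on both sides of 0. Of 19 tested, 9 were below 0 and 10 above, with a median of 0.0069 and 0 past the threshold in either direction. Laptm4a, a lysosomal relative of Laptm5, was 5391 ± 659 normalized counts after AAV-NDNF and 5617 ± 134 after AAV-GFP, and Laptm4b was 3586 ± 465 and 3227 ± 144. The coronins Coro1b, at 1163 ± 136 and 1264 ± 71.4, and Coro1c, at 1932 ± 86.3 and 1879 ± 60.9, overlapped between the groups, as did the plastins Pls1, at 1041 ± 91.2 and 897 ± 163, and Pls3, at 3429 ± 446 and 2945 ± 240. Among relatives with larger differences, the tetraspanin gene Cd63 was 2247 ± 349 and 2740 ± 119 (log2 difference −0.30, SE 0.13, limma adjusted p = 0.997), the same size of difference as for Cd53. The receptor phosphatase gene Ptprf was 1457 ± 407 and 1809 ± 106 (log2 difference −0.35). The 1 relative whose groups did not overlap was Coro2a, named after its values were seen, at 408.8, 467.4 and 426.1 after AAV-NDNF, against 398.2, 304.9 and 407 after AAV-GFP. Whether the relatives differ from the 10 genes was not tested.

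**Figure D4:**
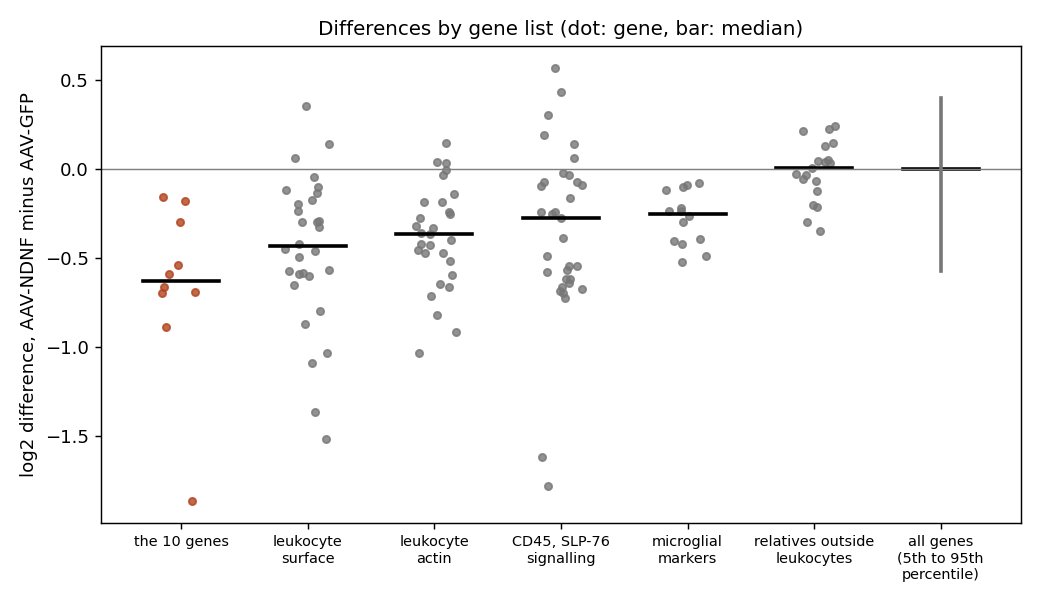
Log2 difference, AAV-NDNF minus AAV-GFP (y axis), of each tested gene (dots) in the 10 genes, 3 lists of other leukocyte genes, the microglial markers and the relatives outside leukocytes, with bars at the medians. The medians are −0.63, −0.43, −0.37, −0.28, −0.25 and 0.0069 in that order, and the grey line at the right spans the 5th to 95th percentile of all genes tested (−0.57 to 0.40).

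Lymphocytes carry several of the 10 genes, so their markers are given beside them. The 14 T cell markers summed to 135.8 to 159.9 normalized counts after AAV-NDNF, against 167.1 to 283 after AAV-GFP, without overlap. The filter was passed by 6 of them, all with overlapping groups. Among those under the filter, Cd3g was at 5, 6.8 and 0 after AAV-NDNF, against 18.7, 9.8 and 21.4 after AAV-GFP. Trbc2 was at 3.4, 3.4 and 2.2, against 13.4, 4.9 and 12.8. Cd3g, Trbc2 and Trbc1 did not overlap between the groups, at low counts, whereas Cd3d, Cd3e, Cd8b1, Cd5 and Cd6 did. Cd3e, a chain of the T cell receptor complex, was at 5, 4.5 and 1.1 after AAV-NDNF, against 19.6, 3.9 and 15 after AAV-GFP. Cd3e and Cd48 were thus both low in AAV-GFP library 2, whereas Itgal was highest there among the controls. The 10 markers of natural killer and cytotoxic cells summed to 16.4 to 28.2 after AAV-NDNF, against 34.2 to 122.3 after AAV-GFP. Among them the chemokine gene Ccl5 was at 7.6, 13.5 and 11 after AAV-NDNF, against 74.1, 25.4 and 34.2 after AAV-GFP. Ccl5 was the highest marker of this list in every library, and the only 1 to pass the filter. Nkg7 was at 0.8, 4.5 and 4.4 after AAV-NDNF, against 25, 2 and 3.2 after AAV-GFP, with overlapping groups. The monocyte marker Ly6c2 was at 1.7, 6.8 and 0 after AAV-NDNF, against 16.1, 15.6 and 19.2 after AAV-GFP. Its groups did not overlap. The 8 monocyte markers summed to 1356 to 1472 after AAV-NDNF and 1485 to 1561 after AAV-GFP, also without overlap. Vcan, Ace and Cd14 had the largest shares of these sums in each library. Of the 4 tested monocyte markers, 3 had log2 differences below 0 and 1 above. B cell markers, mostly Ighm, summed to 511.4 to 696.7 after AAV-NDNF, against 482.8 to 746.3 after AAV-GFP, and overlapped. Without Ighm the sums were 82.4 to 101.9 after AAV-NDNF, against 116.3 to 167.8 after AAV-GFP, with Cd22 the largest share in each library. Of the 5 tested B cell markers, 2 had log2 differences below 0 and 3 above (median 0.011). Cd22 was the 1 tested marker of the list whose groups did not overlap (5.5% of all genes tested). Of these Cd22, a sialic acid-binding inhibitory receptor gene, was at 52.1, 51.8 and 51.5 after AAV-NDNF, against 125, 79.2 and 83.3 after AAV-GFP, without overlap (log2 difference −0.84, limma adjusted p = 0.754). Border macrophage markers summed to 351.4 to 374.3 after AAV-NDNF, against 398.2 to 523.8 after AAV-GFP, with Stab1 the largest share. Without Stab1 the sums were 145.5, 150.9 and 144.6 after AAV-NDNF, against 133.9, 118.2 and 233.9 after AAV-GFP, and overlapped, as did all 5 tested members of that list. The part of these cells in the differences of the 10 genes was not tested.

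Among all other tested genes, the 5 whose centred log2 values lay nearest to the mean profile of the 10 genes over the 6 libraries were Cpne8, C1qb, Blnk, Ncf1 and Clec7a. Their root mean square differences from it were 0.0566, 0.0963, 0.0976, 0.102 and 0.106 in that order on the log2 scale, where the median over all genes was 0.408. Cpne8, which encodes a copine, was at 102.6, 117.1 and 119.4 normalized counts after AAV-NDNF, against 174.1, 167.1 and 200.8 after AAV-GFP. Among the 10 genes themselves Mpeg1 lay nearest to the mean profile (0.0555) and Itgal farthest (0.699). That profile includes each of the 10 genes itself. It also includes Ptprc, Laptm5 and Mpeg1, so nearness to it in part restates the lower values on which these were selected.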

How the data were processed

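Polyadenylated RNA of 6 cord libraries was sequenced. Cutadapt, HISAT2, HTSeq, DESeq2 and the mm10 build appear in the submitters' processing notes. The sources used here give neither versions nor annotation nor strand setting. Per the file headers and values, the deposited columns are a normalized signal (gene counts divided by 1 size factor per library, 100% whole multiples of 1 read, tolerance 0.001). Log2 fold changes, their standard errors, a Wald score and p-values from DESeq2 were deposited beside them. Since the unit is not raw counts, the test was limma (3.58.1, robust, with a variance trend) on log2(normalized count + 1), two-sided, with Benjamini-Hochberg adjustment over the 17480 genes that reached 10 normalized counts in 3 or more libraries. Calls needed an adjusted p under 0.05. The pseudocount makes differences of low genes smaller. edgeR 4.0.16 and DESeq2 1.42.0 on recovered reads were alternatives (R 4.3.3, figures with matplotlib 3.10.9). The fit was tested on simulated data. Exon lengths and positions come from GENCODE M21, which held 98.1% of the symbols. Nothing states how many animals each library holds, so p-values measure the spread between these libraries. Libraries of a group differed by more than counting noise, so none was counted as a repeat deposit of another. The 10 genes and all lists were chosen with earlier results of these data known. Named genes were the 10, fixed partners and relatives (1 of which is not reported here), up to 4 genes with the smallest p per list, and the 5 nearest in pattern. Cd3e and other single marker genes were chosen after their values were seen.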

Additional observations from a re-analysis of the deposited data

How the results depend on the processing

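All 10 genes kept a log2 difference below 0 in all 15 alternatives run. The count of all genes called, 0 in limma and 0 in edgeR's quasi-likelihood test on recovered reads (818 and 808 at an unadjusted p under 0.05), was 3 with no filter on low values, 54 with DESeq2, 165 with limma-voom and quality weights, and 0 to 43 when each library was left out in turn. With the replicate number as a block, 6 genes were called, but same-numbered libraries did not deviate together (correlations −0.09, 0.0485 and 0.0801), so the numbers give no pairing, and none of the 7 genes that were not selected was among the calls. The median difference of the 10 genes was −0.72 to −0.53 over its alternatives, and relative to microglial markers it was −0.44 to −0.24. The count of the 10 whose groups did not overlap, 5, was 8 with upper quartile scaling and 5 to 9 when a library was left out. Leaving out a library can only keep or raise this count, and the share of all genes was not counted in these settings. The alternatives for this count and for the count at an unadjusted p, the second gene length and the marker sums without 1 gene were added after seeing the data. Limma with 1 library left out assumes equal variance in both groups. Itgal rests on 10 to 21 reads per AAV-NDNF library, so its ratio is the least precise.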

Other observations

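Genes that work next to SLP-76 and CD48 are given next. They are named here after their values were seen. Grap2, which encodes the adaptor GADS that carries SLP-76 to LAT, was at 4.2, 4.5 and 6.6 normalized counts in AAV-NDNF libraries 1 to 3, against 25.9, 22.5 and 12.8 in AAV-GFP libraries 1 to 3. Zap70, the T cell receptor kinase that phosphorylates SLP-76, was at 3.4, 6.8 and 6.6 after AAV-NDNF, against 18.7, 28.3 and 11.7 after AAV-GFP. Neither overlapped between the groups, and neither passed limma over all genes (adjusted p = 0.781 for Grap2 and 0.915 for Zap70). Unlike Cd48, both were low in AAV-GFP library 3 and not in AAV-GFP library 2.

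Of the SLAM family, to which CD48 belongs, 6 other receptor genes were tested and 0 passed limma in either direction. Slamf6 was at 16, 20.3 and 3.3 normalized counts after AAV-NDNF, against 33.9, 24.4 and 39.5 after AAV-GFP (log2 difference −1.51, adjusted p = 0.995). The log2 differences of Slamf7, Slamf9, Ly9 and Cd84 were −1.09, −0.80, −0.49 and −0.45, and that of Slamf8 was 0.35. The groups did not overlap for Slamf6, Slamf9, Ly9 and Cd84, with AAV-NDNF lower, as in 5.5% of all genes tested. They overlapped for Slamf7 and Slamf8. Sh2d1a, the adaptor of these receptors in T cells, was at 72.3, 99.1 and 84.3 after AAV-NDNF, against 74.1, 32.2 and 75.8 after AAV-GFP (log2 difference 0.57), with overlapping groups.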
